A study of Mus musculus with 6 samples.

Results

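The genes described here are 10 that set the pace of the G1 phase, out of 18465 genes in the deposited table. They were chosen by symbol, and all 10 were present and passed the filter on low values. They are 5 inhibitors of cyclin-dependent kinases, 3 D cyclins and 2 kinases that the D cyclins activate. RNA was sequenced from SLAM-LSK cells, a sorted fraction of mouse bone marrow rich in haematopoietic stem cells (positive for CD150, Sca-1 and c-Kit, without CD48 or lineage markers). The groups were 3 samples from C57BL/6 mice heterozygous for the R751W allele of Mecom, labelled MecomWT:R751W, and 3 samples from wild-type (WT) C57BL/6 mice. Mecom encodes the transcription factor MECOM (EVI1), which stem cells need. The labels give neither age nor any treatment. They number the samples as biological replicates without saying that each came from a mouse of its own, so the tests below compare samples and their spread may be partly technical.

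In G1, D cyclins bind CDK4 and CDK6 and the pair phosphorylates the retinoblastoma protein, which frees E2F factors to switch on genes of DNA replication. INK4 inhibitors bind CDK4 and CDK6 directly and keep D cyclins off. CIP/KIP inhibitors bind whole cyclin and kinase complexes and block CDK2 most strongly. Haematopoietic stem cells are mostly quiescent, and mouse genetics has tied p27 and p57 to holding them there.

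Levels are in TPM, reads per gene length scaled to the same total in each sample, so comparisons between genes rest on the lengths used. The values imply 1420 bases for Cdk4 and 12096 for Cdk6, where merged exons in GENCODE M21 span 3249 and 13989. For Ccnd2 and Ccnd3 they imply 6408 and 2513 bases, where merged exons span 9409 and 8775. The gap between implied and merged lengths thus differs from gene to gene. Cdk4 had 6566 implied reads over the 6 samples and Cdk6 32696. The order of genes, with Cdk4 first, and the size of ratios between them depend on such lengths. Both are given below for the implied lengths, which were not varied. Read numbers implied by the TPM ratios gave between 10427533 and 12378149 reads per sample. The 8 markers of the stem cell gate were all present and summed to 367.6 to 441.5 TPM in MecomWT:R751W and 416.7 to 483.8 TPM in WT. Mecom was at 39.9 to 50.9 TPM in MecomWT:R751W and 34.9 to 42.9 TPM in WT, and a gene total does not show the altered base. Markers of multipotent and lymphoid-primed progenitors summed to 98.0 to 119.7 TPM over 4 of 5 listed genes in MecomWT:R751W and 85.7 to 105.0 TPM in WT, most of it Cd34. The other 3 of those genes were higher without overlap. Over all genes tested below, 4.50% were higher without overlap and 9.19% did not overlap in either direction. Flt3, a receptor of early progenitors, was at 20.4 to 24.1 TPM in MecomWT:R751W and 9.30 to 13.04 TPM in WT. Dntt, an enzyme of lymphoid precursors, was at 0.943 to 2.28 TPM in MecomWT:R751W and 0.164 to 0.400 TPM in WT. Cd48, whose product the sort selects against, was at 2.27 to 4.10 TPM in MecomWT:R751W and 1.02 to 2.18 TPM in WT. Summed levels of 2 further lists did not overlap. Markers of T and NK cells summed to 16.0 to 18.8 TPM over 4 of 8 listed genes in MecomWT:R751W and 7.29 to 8.59 TPM in WT. Of the other 4, Cd3d, Cd3e, Cd3g and Cd8a, none was analysed here. Of the 4 summed, only Nkg7 did not overlap, at 9.51 to 12.1 TPM in MecomWT:R751W and 3.89 to 4.76 TPM in WT. Klrb1c, Cd4 and Lck overlapped. Markers of erythroid cells summed to 16.7 to 29.0 TPM over 6 of 7 listed genes in MecomWT:R751W and 9.25 to 14.2 TPM in WT. Among them Klf1, Car1 and Ermap were higher without overlap, as were 4.50% of all genes tested. Car1 was at 8.93 TPM in MecomWT:R751W replicate 2. The globin genes Hba-a1, Hbb-bt and Hbb-bs overlapped. The part of these markers in the values below was not tested, and in bulk RNA fewer cells with a transcript and less transcript per cell cannot be told apart.

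By the mean over 6 samples, Cdk4 stood first, followed by Ccnd2, Cdk6, then Ccnd3 and Cdkn1b together, Cdkn2d, Cdkn1c, Ccnd1, and last Cdkn2c and Cdkn1a. Ranks 1, 2, 3, 6, 7 and 8 were held by the same genes in all 6 samples, and the other 4 ranks varied. Cdkn1b was above Ccnd3 in MecomWT:R751W replicates 2 and 3 and below it in the other 4 samples. Cdkn1a was the lowest in 5 samples and Cdkn2c in WT replicate 1. Some neighbours could not be separated by their spread. Cdkn1b and Ccnd3 overlapped in both groups, as did Cdk4 and Ccnd2 in WT, where the ratio of means was 1.15. In MecomWT:R751W the ranges of Cdkn2d and Cdkn1c, of Cdkn1c and Ccnd1, and of Ccnd1 and Cdkn2c overlapped too. In WT those of Ccnd1 and Cdkn1a and of Cdkn1a and Cdkn2c did. Among the 12552 protein-coding rows, the mean of Cdk4 exceeded 96.9% and that of Cdkn1a 23.6%.

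**Figure D1:**
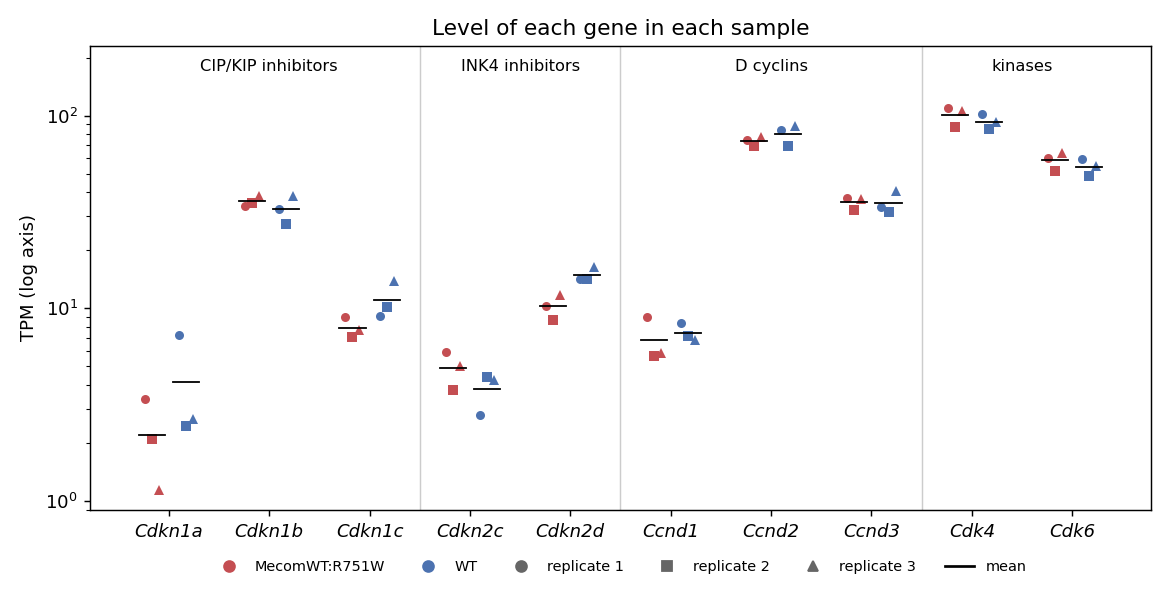
TPM of each gene (log axis) in each sample, with MecomWT:R751W to the left of WT for every gene. Points are samples, shaped by replicate number, and bars are group means. The kinases, Ccnd2, Ccnd3 and Cdkn1b lie above 27 TPM in all 6 samples, and Cdkn2d and Cdkn1c are the genes whose groups do not overlap.

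No gene of the 10 passed limma's test between genotypes. The test was run on log2(TPM + 1) over 16655 genes, with Benjamini-Hochberg adjusted p-values and a threshold of 0.05, and it called 0.00% of all genes. The smallest adjusted p of any gene was 0.0856. At an unadjusted p under 0.05 it found 2 of the 10, both lower in MecomWT:R751W, where 3.23% of all genes were lower, 2.74% were higher and 5.97% passed in either direction. The groups did not overlap for the same 2 genes, Cdkn2d and Cdkn1c, where 4.70% of all genes lay lower without overlap and 9.19% did in either direction. The other 8 overlapped. With 10 genes chosen when earlier results were known, such counts describe the set and do not test it. Log2 fold changes lay below 0 for 5 of the 10 and for 51.0% of all genes. Their median was -0.42 over the 5 inhibitors and 0.012 over the 5 cyclins and kinases, beside -0.0037 over all genes tested. The inhibitors did not move as a class. They ran from -0.62 to 0.30, with 3 of 5 below 0, and 3 of 5 cyclins and kinases lay above 0.

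**Figure D2:**
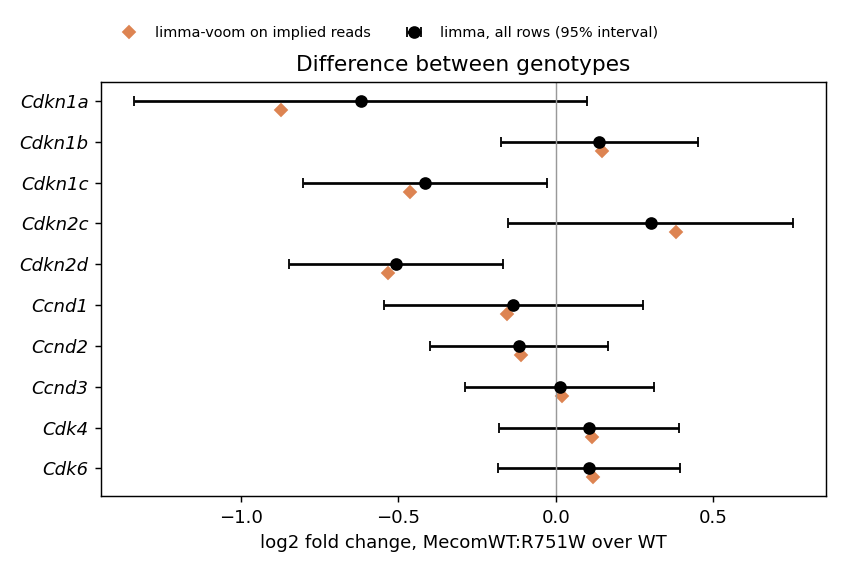
Log2 fold change of each gene, MecomWT:R751W over WT. Black points are from limma on log2(TPM + 1) over all rows with 95% intervals, and orange diamonds from limma-voom on implied reads. The intervals of Cdkn2d and Cdkn1c lie below 0 before adjustment, and those of the other 8 span 0.

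Among the INK4 inhibitors, Cdkn2d and Cdkn2c stood on opposite sides of 0. Cdkn2d encodes p19INK4d, an inhibitor of CDK4 and CDK6. It was at 10.3, 8.68 and 11.8 TPM in MecomWT:R751W replicates 1, 2 and 3, against 14.2, 14.3 and 16.3 TPM in WT replicates 1, 2 and 3. All 3 MecomWT:R751W samples lay below the lowest WT sample. The means were 10.3 ± 1.55 TPM in MecomWT:R751W and 14.9 ± 1.22 TPM in WT (SD, n = 3 each). The log2 fold change was -0.51 (SE 0.16, 95% interval -0.85 to -0.17), with an adjusted p of 0.566 by limma. It stayed between -0.60 and -0.39 in the 25 other settings run, where the smallest adjusted p was 0.0941. These values rest on 895 implied reads over the 6 samples.

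The gene lies on chromosome 9 from 21288410 to 21291407, on the minus strand of GRCm38. Its promoter is shown because Cdkn2d had the smallest unadjusted p of the set, 0.0066. The window is chr9:21291160-21291459, minus strand, from RefSeq on GRCm38.p6, and capitals mark GC boxes (GGGCGG on either strand), the element that SP and KLF factors bind.
Cdkn2d: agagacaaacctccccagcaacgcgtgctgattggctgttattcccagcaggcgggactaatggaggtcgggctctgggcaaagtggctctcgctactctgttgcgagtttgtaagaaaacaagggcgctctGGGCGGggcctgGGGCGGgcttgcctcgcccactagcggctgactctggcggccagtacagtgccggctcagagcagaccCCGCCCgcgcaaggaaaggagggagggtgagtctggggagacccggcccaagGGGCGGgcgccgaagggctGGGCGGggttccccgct
It holds 5 GC boxes, and 35.6% of the 32817 promoter windows of this length hold at least 1 GC box. It also holds 1 match to a short unit of the p53 element, which is not marked. The match describes letters and not binding.

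Cdkn2c encodes p18INK4c, which limits self-renewal of stem cells in mice. It was at 5.97, 3.79 and 5.02 TPM in MecomWT:R751W replicates 1, 2 and 3, against 2.78, 4.43 and 4.24 TPM in WT replicates 1, 2 and 3. MecomWT:R751W replicate 2 lay within the WT range, and WT replicate 1 was the lowest sample. Its log2 fold change was 0.30 (SE 0.21), and leaving out WT replicate 1 brought it to 0.13, or MecomWT:R751W replicate 1 to 0.17. The 95% interval in folds ran from 0.901 to 1.68 and held both signs. The ratio of Cdkn2c to Cdkn2d within a sample, which needs no scaling between samples, was 0.577, 0.436 and 0.426 in MecomWT:R751W and 0.196, 0.310 and 0.259 in WT. All MecomWT:R751W samples lay above all WT samples in this ratio. Of all ratios of 2 tested genes above 0 TPM in every sample, 14.8% did not overlap in either direction. Cdkn2d nevertheless remained the more abundant of the pair in all 6 samples.

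Among the CIP/KIP inhibitors, Cdkn1c was lower in MecomWT:R751W without overlap, and by a narrow margin. Cdkn1c encodes p57Kip2, an imprinted gene expressed from the maternal copy. It was at 9.0, 7.14 and 7.73 TPM in MecomWT:R751W replicates 1, 2 and 3, against 9.12, 10.2 and 13.9 TPM in WT replicates 1, 2 and 3. Replicate 1 of both groups stood almost level, and WT replicate 3 was the highest sample. The log2 fold change was -0.42 (SE 0.18, 95% interval -0.80 to -0.03), with an adjusted p of 0.797 by limma. It was -0.25 without WT replicate 3. These values rest on 910 implied reads over the 6 samples.

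Cdkn1a encodes p21, the main target through which p53 arrests the cycle, and it was the most variable of the 10 in both groups. By mean TPM it was the rarest in MecomWT:R751W, while in WT Cdkn2c was slightly lower. It was at 3.37, 2.10 and 1.14 TPM in MecomWT:R751W replicates 1, 2 and 3, against 7.30, 2.45 and 2.66 TPM in WT replicates 1, 2 and 3. The groups overlapped, and WT replicate 1 stood far above the other 5 samples. The coefficient of variation was 50.8% in MecomWT:R751W and 66.3% in WT, where counting of the implied reads alone gives 12.1% and 8.68%. The log2 fold change was -0.62 (SE 0.33), with an adjusted p of 0.926 by limma. Leaving out WT replicate 1 brought it to -0.21, and leaving out MecomWT:R751W replicate 3 to -0.36.

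Over protein-coding rows alone, limma called 1.16% of 11394 genes and 0 of the 10, with an adjusted p of 0.200 for Cdkn1a. That fit gave Cdkn1a an SE of 0.22, against 0.33 over all rows, so its calls lean on the spread of other genes of like level. With a sample left out of that fit, Cdkn1a passed in 2 of 6 cases. It did so without MecomWT:R751W replicate 1 (adjusted p 0.0128 by limma, where 1.33% of genes were called) and without WT replicate 3 (0.0253, where 1.74% were). None of the 10 passed without MecomWT:R751W replicate 2 (0.463% of genes called), MecomWT:R751W replicate 3 (0.948%), WT replicate 1 (0.660%) or WT replicate 2 (0.456%).

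Cdkn1a is the gene of the set in which samples of 1 genotype differed most, so its upstream start is shown. The gene lies on chromosome 17 from 29090976 to 29100727, plus strand. The window is chr17:29090729-29091028, plus strand, from RefSeq on GRCm38.p6. Capitals mark matches to the 10-base unit of the p53 element, searched on both strands. A full p53 element is a tandem of such units, and full elements were not searched.
Cdkn1a: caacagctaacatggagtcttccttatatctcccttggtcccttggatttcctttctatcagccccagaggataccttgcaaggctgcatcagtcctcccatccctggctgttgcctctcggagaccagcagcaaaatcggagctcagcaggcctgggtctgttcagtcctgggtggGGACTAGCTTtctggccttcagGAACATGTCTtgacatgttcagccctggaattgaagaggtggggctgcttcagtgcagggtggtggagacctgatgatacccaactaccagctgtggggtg
It holds 2 matches, and 8.36% of windows hold at least 1 such unit. The downstream start of the gene, in the window from 29093519 to 29093818, holds 0 p53 units and 2 GC boxes. Gene totals do not separate transcripts from the 2 starts.

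Cdkn1b encodes p27Kip1 and was the most abundant inhibitor by far. It was at 34.0, 35.4 and 38.2 TPM in MecomWT:R751W replicates 1, 2 and 3, against 32.9, 27.3 and 38.1 TPM in WT replicates 1, 2 and 3. The groups overlapped, with WT replicate 2 the lowest sample. Its log2 fold change was 0.14 (SE 0.14), between 0.017 and 0.25 as each sample was left out, and the 95% interval in folds ran from 0.886 to 1.37.

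Within the inhibitor pool, Cdkn1b took a larger share in MecomWT:R751W and Cdkn2d a smaller one, while the size of the pool overlapped. These are descriptions with no test. Summed TPM of the 5 inhibitors was 61.2 ± 3.65 in MecomWT:R751W and 66.7 ± 8.28 in WT (SD, n = 3 each), with overlap. Cdkn1b took 54.3%, 62.0% and 59.8% of it in MecomWT:R751W replicates 1, 2 and 3, against 49.6%, 46.6% and 50.6% in WT replicates 1, 2 and 3. The share of Cdkn1b was thus higher in every MecomWT:R751W sample. Cdkn2d took 16.7% ± 1.62 in MecomWT:R751W and 22.5% ± 1.61 in WT, also without overlap. The shares of Cdkn1c (13% ± 1.21 in MecomWT:R751W and 16.5% ± 2.46 in WT) and of Cdkn1a and Cdkn2c overlapped. Shares add up to a fixed total, so a lower share of some genes raises that of others.

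**Figure D3:**
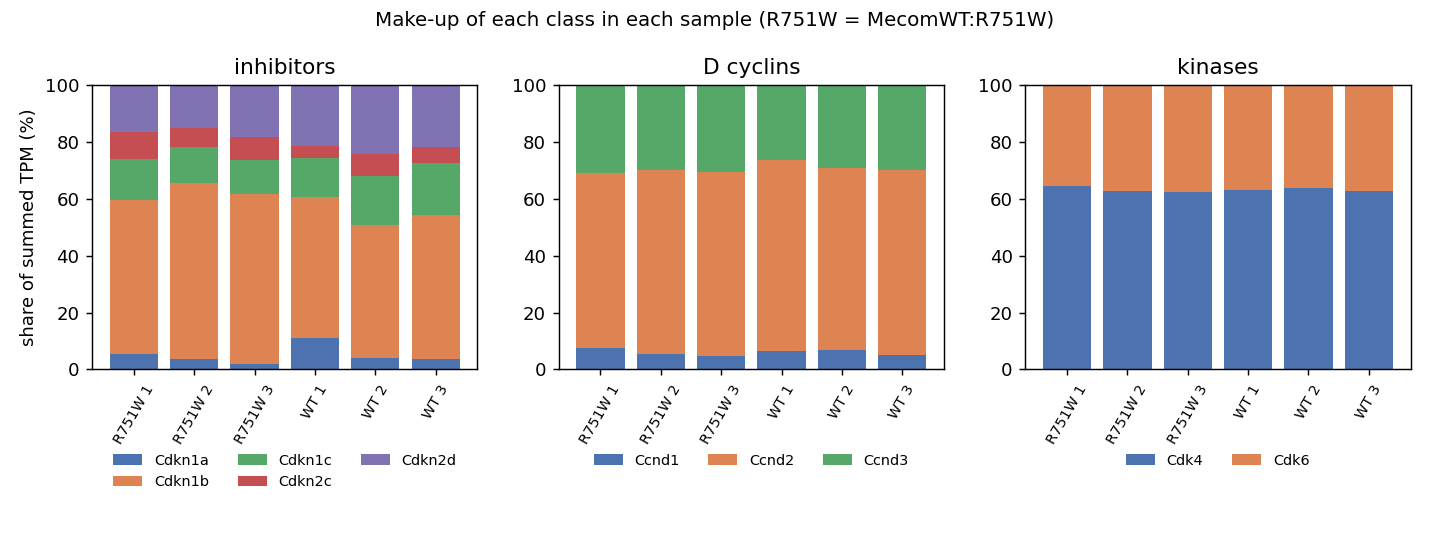
Share of summed TPM (%) that each gene takes within the inhibitors, the D cyclins and the kinases. Each bar is a sample, with the 3 MecomWT:R751W samples to the left of the 3 WT samples. Cdkn1b takes 54.3% to 62.0% of the inhibitors in MecomWT:R751W and 46.6% to 50.6% in WT, while Cdk4 takes 62.3% to 64.3% of the kinases across all 6 samples.

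None of the D cyclins passed the test, and all 3 overlapped between genotypes. Ccnd2, the most abundant D cyclin here, was at 74.5, 69.7 and 77.8 TPM in MecomWT:R751W replicates 1, 2 and 3, against 84.4, 69.2 and 88.6 TPM in WT replicates 1, 2 and 3. WT replicates 1 and 3 were the highest samples and WT replicate 2 the lowest. Its log2 fold change was -0.12 (SE 0.13), between -0.22 and -0.047 as each sample was left out, with a 95% interval in folds from 0.758 to 1.12. Ccnd2 made up 63.6% ± 1.71 of D cyclin TPM in MecomWT:R751W and 65.3% ± 1.48 in WT.

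Ccnd3, the D cyclin that lymphoid precursors depend on in mice, was at 37.3, 32.3 and 37.0 TPM in MecomWT:R751W replicates 1, 2 and 3, against 33.4, 31.8 and 40.9 TPM in WT replicates 1, 2 and 3. The groups overlapped throughout. Its log2 fold change of 0.012 (SE 0.14) had no stable sign and was -0.058 without WT replicate 2 and -0.039 with array weights.

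Ccnd1, a D cyclin widely used outside blood, was at 8.98, 5.66 and 5.84 TPM in MecomWT:R751W replicates 1, 2 and 3, against 8.35, 7.20 and 6.86 TPM in WT replicates 1, 2 and 3. MecomWT:R751W replicate 1 was the highest sample and the other MecomWT:R751W samples were the lowest. Its log2 fold change was -0.14 (SE 0.19), between -0.32 and -0.032 as each sample was left out, with the first of these without MecomWT:R751W replicate 1.

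The kinases kept a near-constant ratio from sample to sample. Cdk4, which needs a D cyclin to act, was at 109.2, 87.1 and 105.3 TPM in MecomWT:R751W replicates 1, 2 and 3, against 102.0, 85.4 and 92.2 TPM in WT replicates 1, 2 and 3. Cdk6, its close relative, was at 60.5, 51.7 and 63.8 TPM in MecomWT:R751W replicates 1, 2 and 3, against 59.7, 48.8 and 54.7 TPM in WT replicates 1, 2 and 3. Replicate 2 was the lowest sample of each group for both genes. The ratio of Cdk4 to Cdk6 was 1.71 ± 0.0812 in MecomWT:R751W and 1.71 ± 0.0326 in WT (SD, n = 3 each). The log2 fold changes were 0.10 (SE 0.13) for Cdk4 and 0.11 (SE 0.13) for Cdk6. The 95% intervals in folds ran from 0.883 to 1.31 for Cdk4 and from 0.881 to 1.31 for Cdk6. As each sample was left out, the log2 fold changes ran from 0.042 to 0.20 for Cdk4 and from 0.032 to 0.19 for Cdk6.

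Cdk4 had the highest TPM of the set, a rank that rests on the implied lengths. Its promoter is shown for its E boxes (CACGTG, a palindrome), the element bound by MYC and MAX. The gene lies on chromosome 10 from 127063534 to 127067920, plus strand, and the window is chr10:127063285-127063584, plus strand, from RefSeq on GRCm38.p6. Capitals mark the E boxes.
Cdk4: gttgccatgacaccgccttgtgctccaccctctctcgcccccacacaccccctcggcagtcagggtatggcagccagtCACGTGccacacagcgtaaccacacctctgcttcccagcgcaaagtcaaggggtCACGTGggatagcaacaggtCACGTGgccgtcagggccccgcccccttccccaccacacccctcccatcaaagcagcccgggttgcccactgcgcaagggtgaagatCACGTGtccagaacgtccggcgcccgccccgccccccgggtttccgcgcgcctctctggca
It holds 4 E boxes, with 3 GC boxes that are not marked, and 7.15% of windows hold at least 1 E box. Of the other genes of the set with a window, Cdk6 holds 1 E box and Cdkn2c holds 1 at its start near 109665323 on chromosome 4. A promoter window was found for 7 of the 10 genes.

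Inhibitors were weighed against their targets by ratios of summed TPM within each sample, which no scaling between samples can alter. As scores over chosen genes they carry no p-value. The 5 inhibitors over the 3 D cyclins gave 0.519, 0.530 and 0.530 in MecomWT:R751W replicates 1, 2 and 3, against 0.526, 0.542 and 0.551 in WT replicates 1, 2 and 3. These ratios lay close together and the groups overlapped. The CIP/KIP inhibitors over D cyclins gave 0.384, 0.415 and 0.391 in MecomWT:R751W and 0.391, 0.369 and 0.400 in WT, again with overlap.

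The INK4 inhibitors over Cdk4 plus Cdk6 gave 0.0961, 0.0898 and 0.0994 in MecomWT:R751W replicates 1, 2 and 3, against 0.105, 0.139 and 0.140 in WT replicates 1, 2 and 3. All MecomWT:R751W samples lay below all WT samples, with WT replicate 1 nearest to them. The mean log2 ratio was -3.40 ± 0.074 in MecomWT:R751W and -2.98 ± 0.24 in WT (SD, n = 3 each), a difference of -0.42. Leaving out 1 sample at a time gave -0.56 to -0.35. Both sides of the ratio enter this difference. Summed TPM of the INK4 inhibitors was 15.2 ± 2.37 in MecomWT:R751W and 18.8 ± 1.81 in WT, with a narrow gap between groups. That of the kinases was 159.1 ± 17.6 in MecomWT:R751W and 147.6 ± 13.7 in WT, with overlap. Without Cdkn2d the ratio has Cdkn2c alone above the line, and the difference was 0.27.

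All 5 inhibitors over the D cyclins plus both kinases gave 0.216, 0.232 and 0.221 in MecomWT:R751W replicates 1, 2 and 3, against 0.230, 0.242 and 0.265 in WT replicates 1, 2 and 3. MecomWT:R751W replicate 2 lay just above WT replicate 1, so the groups overlapped. Of all 45 ratios of 2 genes of the set, 16 (35.6%) did not overlap between genotypes, where 14.8% of all ratios of 2 tested genes above 0 TPM in every sample did not. The share describes these libraries and is no test. Cdkn2d took part in 6 of the 16, Cdkn1c in 5 and Ccnd2 in 5, and Cdkn1a in 0. The ratios share genes and are not independent of each other. That of Cdkn1b to Ccnd2, the most abundant inhibitor to the most abundant D cyclin, was 0.456, 0.508 and 0.492 in MecomWT:R751W and 0.390, 0.395 and 0.429 in WT. It was named after its values were seen.

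**Figure D4:**
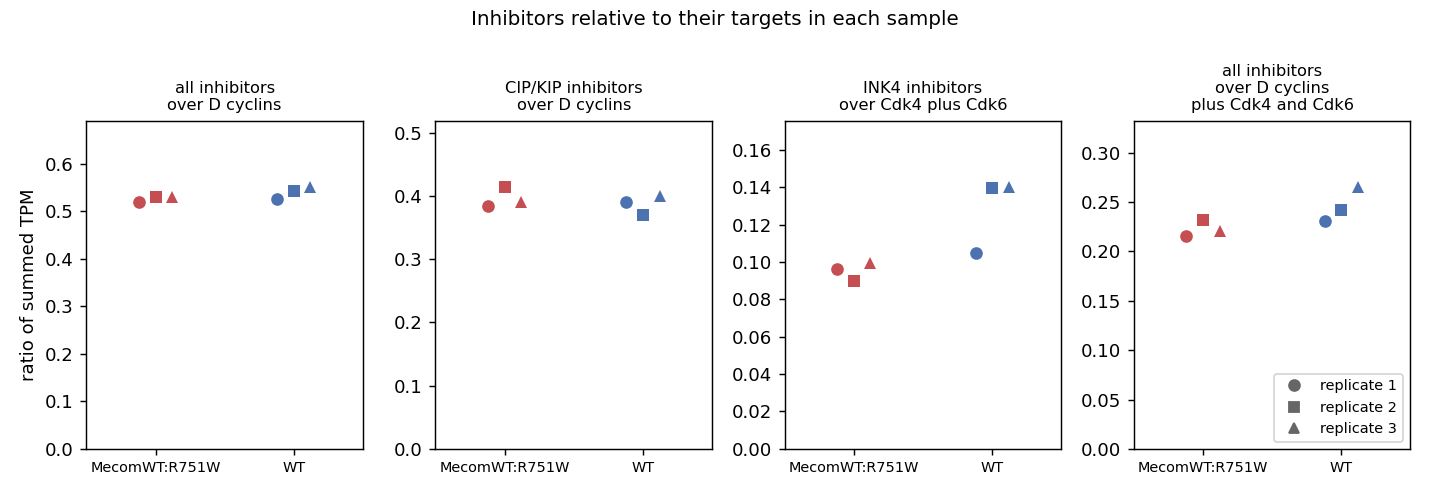
Ratio of summed TPM of inhibitors to summed TPM of their targets in each sample, with MecomWT:R751W to the left of WT in each panel. Points are samples, shaped by replicate number, and every axis starts at 0. The groups separate for the INK4 inhibitors over Cdk4 plus Cdk6 (0.0898 to 0.0994 in MecomWT:R751W and 0.105 to 0.140 in WT) and overlap in the other 3 panels.

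Of the other genes of the pathway, 47 in 6 lists and 17 cycling cell markers were tested. None passed limma's adjusted threshold over all rows, so counts are of signs. Of the E cyclins, A cyclins, Cdk2 and Cdc25a, 6 of 6 lay above 0, with a median log2 fold change of 0.11, which was -0.020 with array weights and 0.0085 without WT replicate 2. Ccna2, the cyclin of S phase and early mitosis, was at 34.6 ± 2.91 TPM in MecomWT:R751W and 30.7 ± 4.55 TPM in WT. Cdk2, the kinase that CIP/KIP proteins block most strongly, was at 34.3 ± 2.70 TPM in MecomWT:R751W and 32.3 ± 3.30 TPM in WT. Log2 fold changes of Ccne2 (0.12) and Cdc25a (0.12) were of like size.

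Of the pocket proteins and E2F factors, 8 of 13 lay above 0, with a median of 0.048. The repressor E2f7 was higher in every MecomWT:R751W sample, at 10.5 ± 1.48 TPM in MecomWT:R751W and 8.51 ± 0.118 TPM in WT. It was the only 1 of the 13 without overlap, where 4.50% of all genes lay higher without overlap and 9.19% did in either direction. Its relative E2f8 was at 23.0 ± 1.1 TPM in MecomWT:R751W and 19.0 ± 3.76 TPM in WT. Rbl1, which encodes p107, had a log2 fold change of 0.13 and Tfdp1, the partner of E2F, 0.14. Of the 4 genes of kinase activation and assembly, 2 lay above 0. They included Cdc37, a chaperone of CDK4, at 227.4 ± 5.32 TPM in MecomWT:R751W and 227.1 ± 25 TPM in WT. The other 3 encode the CDK-activating kinase, and their log2 fold changes were -0.22 for Mnat1, -0.15 for Ccnh and 0.034 for Cdk7.

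Of 13 genes for breakdown of inhibitors and D cyclins, 7 lay above 0, with a median of 0.027. Cks1b, which with SKP2 marks p27 for breakdown, was at 36.1 ± 4.06 TPM in MecomWT:R751W and 29.9 ± 2.58 TPM in WT. Skp2 was at 6.42 ± 0.351 TPM in MecomWT:R751W and 5.46 ± 1.47 TPM in WT. The groups overlapped for both. Log2 fold changes were 0.25 for Fbxo4 and -0.21 for Rbx1, members of ubiquitin ligase complexes. Cdkn3, a phosphatase of CDK2 named with the inhibitors, was at 12.4 ± 3.63 TPM in MecomWT:R751W and 12.4 ± 4.80 TPM in WT. Cdkn2a and Cdkn2b were not analysed here.

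Of 10 factors known to act on these genes, 3 lay above 0 and 7 below, with a median of -0.12. Over protein-coding rows alone 3 passed limma's test, where 1.16% of 11394 genes did. The list was chosen with earlier results known, so the count is no test. Gfi1 was higher in MecomWT:R751W and Egr1 and Hes1 lower, though over all rows their adjusted p-values by limma were 0.279, 0.431 and 0.519. Gfi1, a repressor, was at 6.16, 6.14 and 5.32 TPM in MecomWT:R751W replicates 1, 2 and 3, against 2.40, 3.06 and 3.56 TPM in WT replicates 1, 2 and 3. Hes1, a repressor downstream of Notch, was at 6.66, 4.14 and 2.20 TPM in MecomWT:R751W, against 35.4, 12.8 and 5.86 TPM in WT. Gfi1 did not overlap between genotypes, while for Hes1 replicate 1 of MecomWT:R751W exceeded replicate 3 of WT. Egr1, an early response factor, was at 150.6, 92.3 and 61.2 TPM in MecomWT:R751W, against 272.8, 228.7 and 130.2 TPM in WT. Klf4 was at 8.97, 5.28 and 3.79 TPM in MecomWT:R751W, against 15.2, 9.12 and 5.36 TPM in WT. Hes1, Egr1 and Klf4 were each highest in replicate 1 of both groups, as was Cdkn1a.

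Markers of cycling cells lay above 0 in 17 of 17 genes, with a median log2 fold change of 0.13, and none passed the adjusted threshold. The groups did not overlap for 6 of them, all higher in MecomWT:R751W, where 4.50% of all genes were. Ccnb1, the cyclin of mitosis, was at 7.44 ± 0.684 TPM in MecomWT:R751W and 5.22 ± 0.132 TPM in WT. The mean log2(TPM + 1) of the list was 5.53, 5.48 and 5.56 in MecomWT:R751W replicates 1, 2 and 3, against 5.31, 5.26 and 5.42 in WT replicates 1, 2 and 3. Every MecomWT:R751W sample was thus above every WT sample in this level, as it was below in Cdkn2d and Cdkn1c. The part of cycling cells in those 2 genes was not tested. Ube2c, Rrm2 and Cdc6 had log2 fold changes of 0.44, 0.49 and 0.40.

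**Figure D5:**
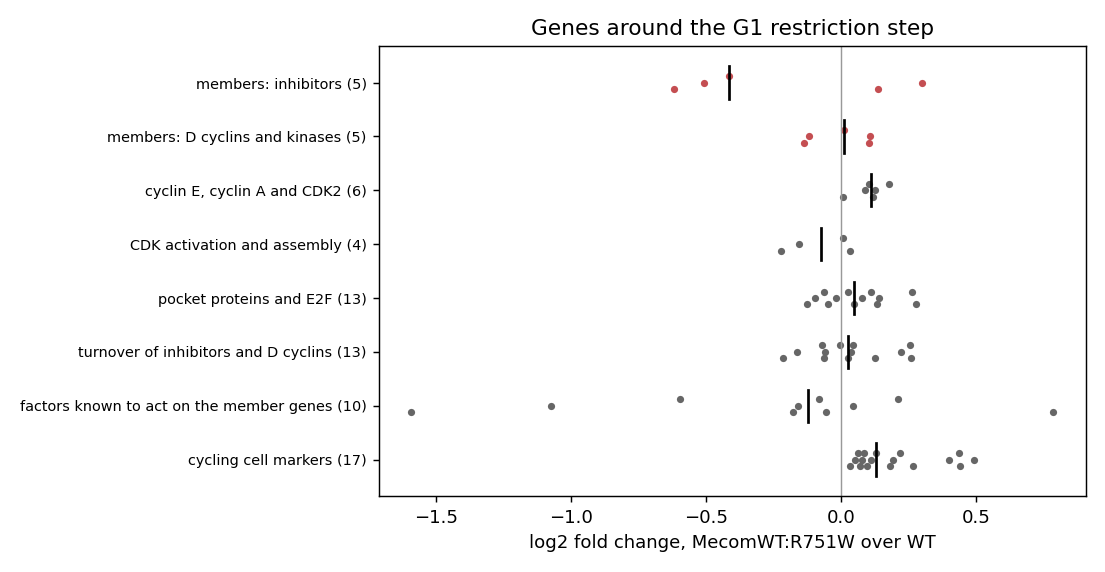
Log2 fold change, MecomWT:R751W over WT, of each tested gene in the set (red) and in the lists around it (grey), with the number of genes in brackets. Cdkn3 is not drawn. Black bars are medians and vertical scatter has no meaning. The inhibitors run from -0.62 to 0.30 with a median of -0.42. The D cyclins and kinases have a median of 0.012, and all 17 cycling cell markers lie above 0.

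The genes whose levels were most like those of Cdkn2d were Stard10, Dbt and Arhgef40, among 8476 protein-coding genes whose mean reached 5 TPM. Likeness was Pearson's r of log2(TPM + 1) over the 6 samples, given as a description of the 3 highest of many, at 0.994, 0.982 and 0.974. Stard10 was at 21.3, 18.7 and 24.8 TPM in MecomWT:R751W and 27.2, 28.2 and 32.3 TPM in WT. With 6 samples, 18 genes reached at least 0.95.

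Exons of 4 of the 10 genes overlap those of a gene on the opposite strand that the table also lists. Cdk4 shares 641 bases with Tspan31, Ccnd1 1100 with LTO1, Ccnd3 361 with Bysl and Ccnd2 368 with 9330179D12Rik, by GENCODE M21 on GRCm38. Which of the library kits in the labels was used, and whether counting kept to the strand, is not stated, so reads in these stretches cannot be told apart. Tspan31 was at 15.2 to 21.4 TPM in MecomWT:R751W and 14.1 to 20.2 TPM in WT. Cdkn2d has no such neighbour, and the annotated antisense transcript of Cdkn1c, Gm44732, was not analysed here.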

How the data were processed

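RNA-seq of 6 samples, 3 MecomWT:R751W and 3 WT, was analysed from 1 table of TPM deposited by the authors, with 18465 genes and columns that each sum to 1000000. Per the submitters' processing notes, the authors used build mm10 and DESeq2, each listed without a role. No aligner, counter, strand setting or annotation is named in the labels or the file header.

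Genotypes were compared on log2(TPM + 1) by limma (3.58.1, in R 4.3.3), which fitted a trend of variance on mean to the 16655 genes averaging 1 TPM or more. P-values are two-sided and adjusted by Benjamini-Hochberg over all of them. Log2 fold changes on this scale understate changes of low genes. Whole reads were implied within 0.001 reads for 100.0% of genes and were used for depth and for limma-voom. Both the fit and this step were tested on simulated data. Summaries were made in Python (3.11.15) using pandas 2.3.3 and numpy 2.4.6, and plots with matplotlib 3.10.9.

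The genes, lists and tests were chosen with earlier results of these data known. Named are the 10 genes, up to 4 genes of smallest unadjusted p per list, and the 3 genes most like the member of smallest p. Alternatives changed the pseudocount (0.1 or 5), the filter (5 TPM or none), the rows, scaling, variance, weights, block and unit, and left out each sample.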

Additional observations from a re-analysis of the deposited data

How the results depend on the processing

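No gene of the 10 was called in any setting over all rows. With each sample left out over protein-coding rows, a fit added after seeing the data, 0 to 1 of them was called. That gene was Cdkn1a, with an adjusted p of 0.0128 (log2 fold change -0.87) without MecomWT:R751W replicate 1 and 0.0253 (-0.80) without WT replicate 3. Signs held in every setting run, except for Ccnd3, which was -0.039 with array weights and ran from -0.058 to 0.12 as samples were left out, over all rows and over protein-coding rows alike. Calls over the whole table, 0 in the reported fit, were 2 at a mean of 5 TPM, 1 with array weights, 132 over protein-coding rows, 17 after rescaling to their total and 50 with limma-voom. They were 90 with limma-voom over protein-coding rows and 0 to 13 as samples were left out, or 52 to 198 over protein-coding rows. Fewer genes tested and another variance trend enter these settings together. The cause was not tested.

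The log2 difference of inhibitors over D cyclins, -0.036, was -0.14 as a mean of logs, -0.35 without Cdkn1b and -0.10 without Ccnd2. That of CIP/KIP inhibitors, 0.034, turned to -0.22, -0.50 and -0.032 in the same settings. That of INK4 inhibitors over kinases, -0.42, was -0.21 as a mean of logs and 0.27 without Cdkn2d. That of all 5 inhibitors over D cyclins plus kinases was -0.14, and -0.45 without Cdkn1b. A sum follows its most abundant gene, and these settings change which gene that is. The order of mean abundance was the same in every setting run. Most of these could not alter it, and the gene lengths behind TPM, on which it rests, were not varied. As samples were left out, 4 list medians changed sign: pocket proteins and E2F factors (-0.055 to 0.099), turnover genes (-0.063 to 0.088), kinase activation and assembly (-0.16 to 0.0020) and Cdkn3 alone (-0.24 to 0.30). With array weights the E and A cyclin list was at -0.020 and Cdkn3 at -0.17.

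Replicate numbers were shared between genotypes. Deviations of same-numbered samples correlated at 0.14, 0.0893 and 0.0833 across genes, against -0.0862 to 0.0052 for differently numbered samples. The numbers were not taken as pairs in the reported fit, and a fit with a replicate block is the alternative. Each sample did correlate best with its own number. With the replicate block, 0 genes were called over all rows and 29 over protein-coding rows. Over all rows, Cdkn2d had an adjusted p of 0.357 and Cdkn1a of 0.440 by limma with the block. Cdkn2c, Cdkn1a, Cdkn2d and Cdkn1c, with 471 to 910 implied reads over the 6 samples, are the least precise by counting alone.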
